A study of Neurospora crassa with 5 samples.

Results

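In a Neurospora crassa crossing experiment, 159 of 8638 tested genes set crossed replicates 2 and 3 apart from the other 3 libraries. Of these, 57 genes were higher and 102 were lower in crossed replicates 2 and 3. A gene was taken when both of these libraries lay at least 1 on the log2 CPM scale (a 2-fold distance) above, or both at least 1 below, crossed replicate 1 and both uncrossed libraries. Genes in which all 3 crossed libraries lay at least 0.8 to one side of both uncrossed libraries were left out. CPM are counts scaled to a library of 1000000 after TMM scaling, and log2 CPM carried a prior count of 2. The genes were thus chosen by their measured log2 CPM in all 5 libraries, so their separation is a description with no test, and what follows gives the values and what the genes share beside it.

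RNA was sequenced from cultures of strain FGSC#4564, a mutant in the mating-type gene mat 1-2-1. Every library carries its allele mat a[m1]s-3B and, beside it, the cycloheximide resistance marker cyh-1. Conidia had been plated on cellophane over crossing medium and grown for 6 days. The 3 crossed libraries (replicates 1, 2 and 3) came from tissue taken 2 h after conidia of the wild-type strain FGSC#2489 were added, and the 2 uncrossed libraries (replicates 1 and 3) from tissue taken just before. Each replicate was the whole tissue of a single plate, of a single mutant strain, and crossed tissue may still hold RNA of the added conidia, of which no separate library was analysed here.

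Neurospora crassa makes asexual spores, the conidia, on aerial hyphae, and female fruiting body initials, the protoperithecia, on starved mycelium. The con genes were isolated for transcripts that accumulate during conidiation, and eas encodes the hydrophobin that coats conidia. Filamentous fungi often carry the genes of a secondary metabolite, such as a polyketide, side by side on the chromosome and transcribe them together. The hyphal wall is built of glucans, chitin and proteins, and wall proteins and glycoside hydrolases remodel it during growth.

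The libraries held 25817200 to 39639683 counts. Annotated ribosomal RNA genes took 34.0% and 33.6% of the counts of crossed replicates 2 and 3, against 19.3% in crossed replicate 1 and 14.3% and 21.3% in uncrossed replicates 1 and 3. The ribosomal RNA share thus moved with the same split of the libraries as the 159 genes, and its part in the results was not tested. Summed levels of the 5 conidial marker genes were 64029 and 59585 CPM in crossed replicates 2 and 3, against 35718 CPM in crossed replicate 1 and 15162 and 30530 CPM in uncrossed replicates 1 and 3. No conidial marker was at 0 in any library. Of the opposite mating type genes, matA-1 and matA-3 were tested. They summed to 27.6 and 25.3 CPM in crossed replicates 2 and 3, against 7.15 CPM in crossed replicate 1 and 5.17 and 17.8 CPM in uncrossed replicates 1 and 3, with matA-3 at 0 in crossed replicate 1 and uncrossed replicate 1. Uncrossed replicate 3 was taken before conidia were added, yet its sum lay above that of crossed replicate 1. The source of these transcripts and the part of either list in the results were not tested. In whole tissue, fewer cells of a type and less RNA per cell cannot be told apart.

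Scaling decided the balance of the directions. With plain library sizes in place of TMM, 15 genes were higher and 220 lower, against 57 and 102 with TMM. All 102 lower genes were among the 220, while 14 of the 57 higher genes were among the 15. The 4 higher genes with a symbol were not, since plain library sizes put the distance at 0.868 for con-6 (NCU08769), 0.639 for con-10 (NCU07325), 0.737 for gh31-1 (NCU09281) and 0.693 for mig-4 (NCU09040). With ribosomal RNA genes left out before TMM scaling the counts were 54 higher and 101 lower, and 52 and 101 of the original genes were among them.

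**Figure D1:**
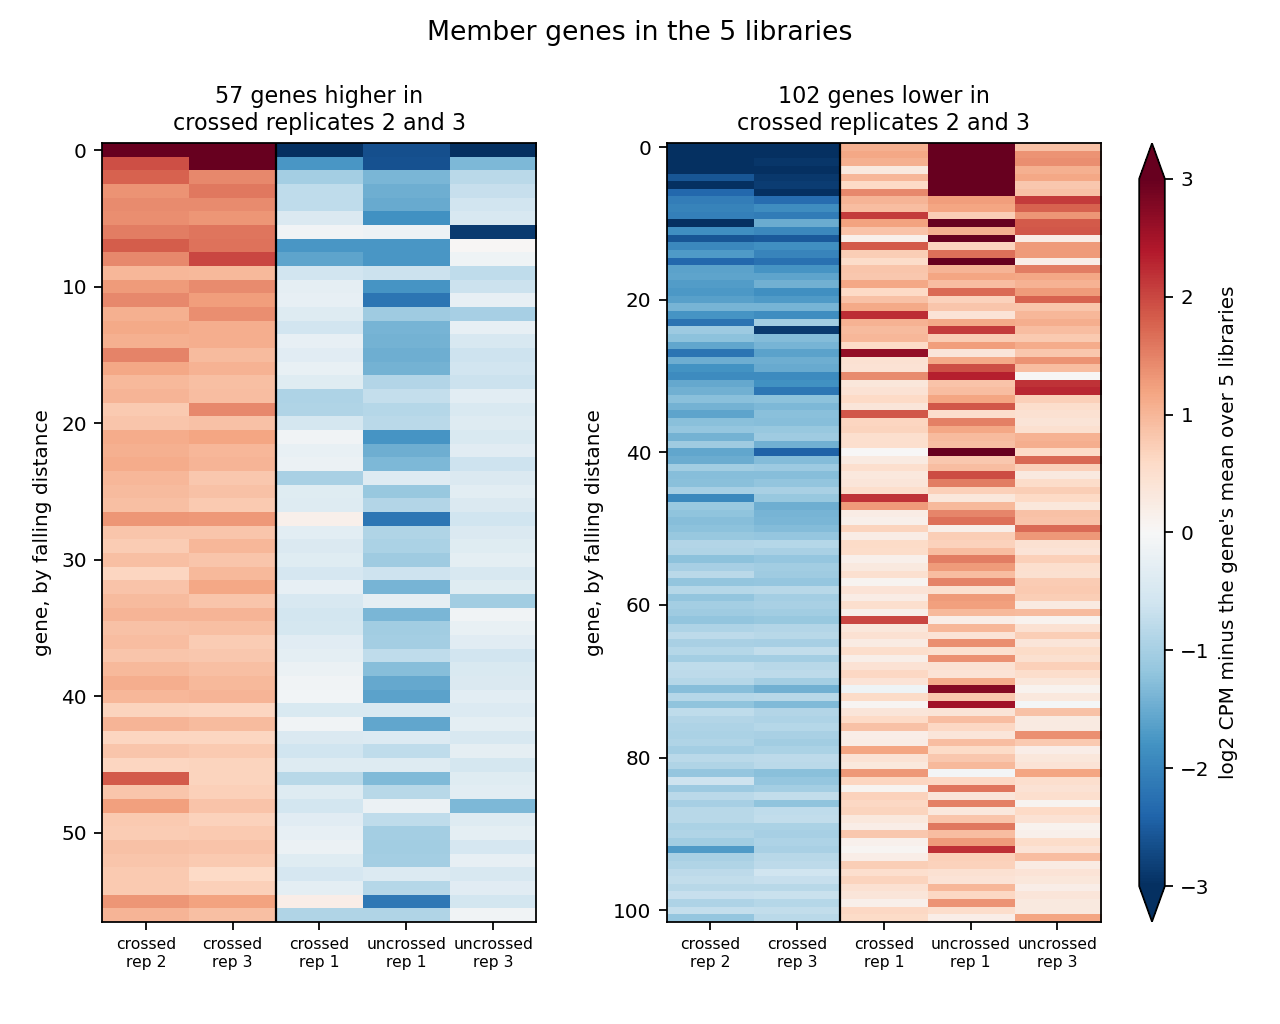
Levels of the 57 higher genes (left) and the 102 lower genes (right) in the 5 libraries, as log2 CPM minus each gene's mean over the 5 libraries, with genes ordered by falling distance of crossed replicates 2 and 3 from the nearest other library. Red is above and blue below the gene's mean, and the vertical line divides crossed replicates 2 and 3 from the other libraries. Among lower genes the strongest red lies in uncrossed replicate 1. That library was the highest of the other 3 in 58 of the 102 (56.9%, against 39.5% of all tested genes).

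Separation of crossed replicates 2 and 3 was common at small distances. They lay above all other libraries in 2427 genes (28.1% of those tested), below them in 2313 (26.8%) and overlapped them in 3898 (45.1%). Only the tails of this distribution passed the distance of 1. Among higher genes the median distance was 1.15, with 11 at 1.5 or more and 4 at 2 or more. Lower genes reached further, with a median of 1.38, 45 at 1.5 or more and 26 at 2 or more. Just inside the limit, NCU04850 and NCU04959 were above by 1.0021 and 1.0037, and NCU07083 and NCU05835 had signed distances of -1.0017 and -1.0032. Just outside it, NCU08727 and NCU05555 were above by 0.9991 and 0.9979, and NCU03011 and NCU02020 had signed distances of -0.9973 and -0.9963. The limit thus cuts a continuous range and marks no gap.

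**Figure D2:**
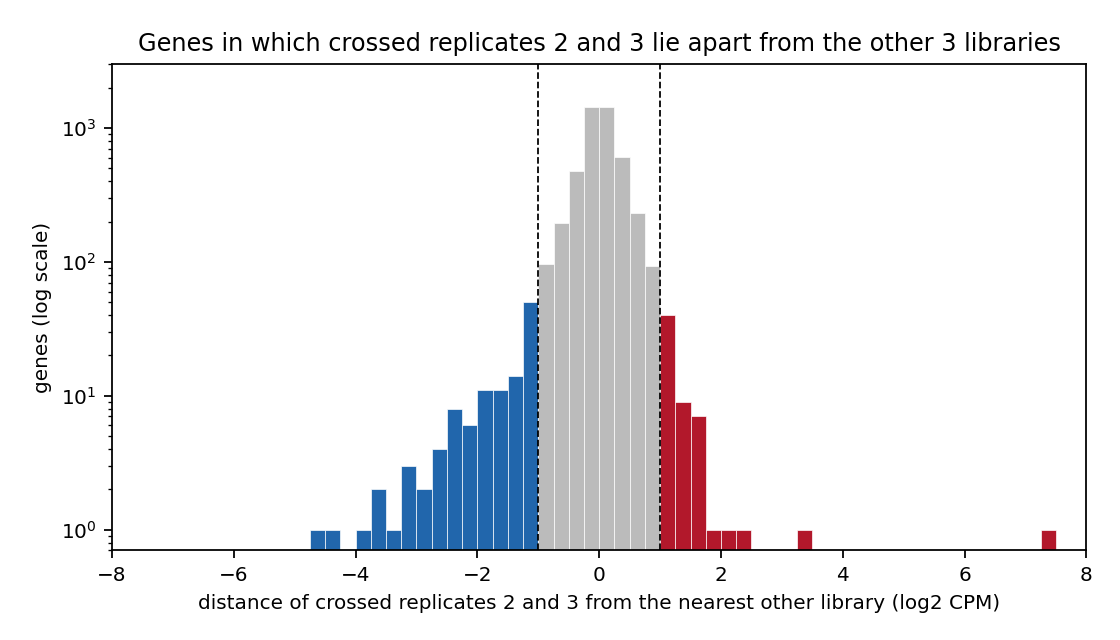
Distance of crossed replicates 2 and 3 from the nearest of the other 3 libraries, in log2 CPM, for the genes without overlap, with the number of genes on a log axis. Dashed lines mark the distance of 1, and coloured bars beyond them also hold the 4 higher and 13 lower genes that the last clause of the rule left out. The lower tail (blue) is the longer one apart from a single ribosomal RNA row at 7.44.

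Among the higher genes, 51 were protein coding, 5 were ribosomal RNA rows and 1 was a transfer RNA. Only 4 had a symbol in the gene table: con-6, con-10, gh31-1 and mig-4. Their mean level was at least 10 CPM in 33 of the 57 and under 1 CPM in 6. The values of crossed replicates 2 and 3 lay close to each other, with a median absolute difference of 0.09 on the log2 scale, against 0.08 over all tested genes. The ribosomal RNA rows NCU15715 and NCU15828 were further apart, with log2 differences of crossed replicate 3 from crossed replicate 2 of 1.83 and -1.18.

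The conidiation gene con-6 (NCU08769) took more counts than any other protein-coding gene of the higher group. It had 12031 and 11122 CPM in crossed replicates 2 and 3, against 4947 CPM in crossed replicate 1 and 3483 and 4788 CPM in uncrossed replicates 1 and 3. Crossed replicate 1 thus lay beside uncrossed replicate 3 and not beside the other crossed libraries. The gene con-10 (NCU07325), whose transcript also accumulates during conidiation, had 1194 and 1048 CPM in crossed replicates 2 and 3. It had 485 CPM in crossed replicate 1 and 521 and 497 CPM in uncrossed replicates 1 and 3. These 3 values spanned 0.10 on the log2 scale, so con-10 was level in the other libraries.

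The remaining conidial markers also had crossed replicates 2 and 3 on top, at distances under 1. The hydrophobin gene eas (NCU08457) had 47303 and 44024 CPM in crossed replicates 2 and 3, against 27897 CPM in crossed replicate 1 and 9197 and 22810 CPM in uncrossed replicates 1 and 3, a distance of 0.66. For con-8 (NCU09235) the distance was 0.44 and for con-13 (NCU07324) it was 0.70. All 5 conidial markers thus had crossed replicates 2 and 3 on top, as did 28.1% of all tested genes. Of the 5, 2 were among the 57 genes, which are 0.66% of all tested genes. Of 6 conidiation regulators tested, 4 had crossed replicates 2 and 3 on top, against the same 28.1%, and 0 reached the distance of 1.

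**Figure D3:**
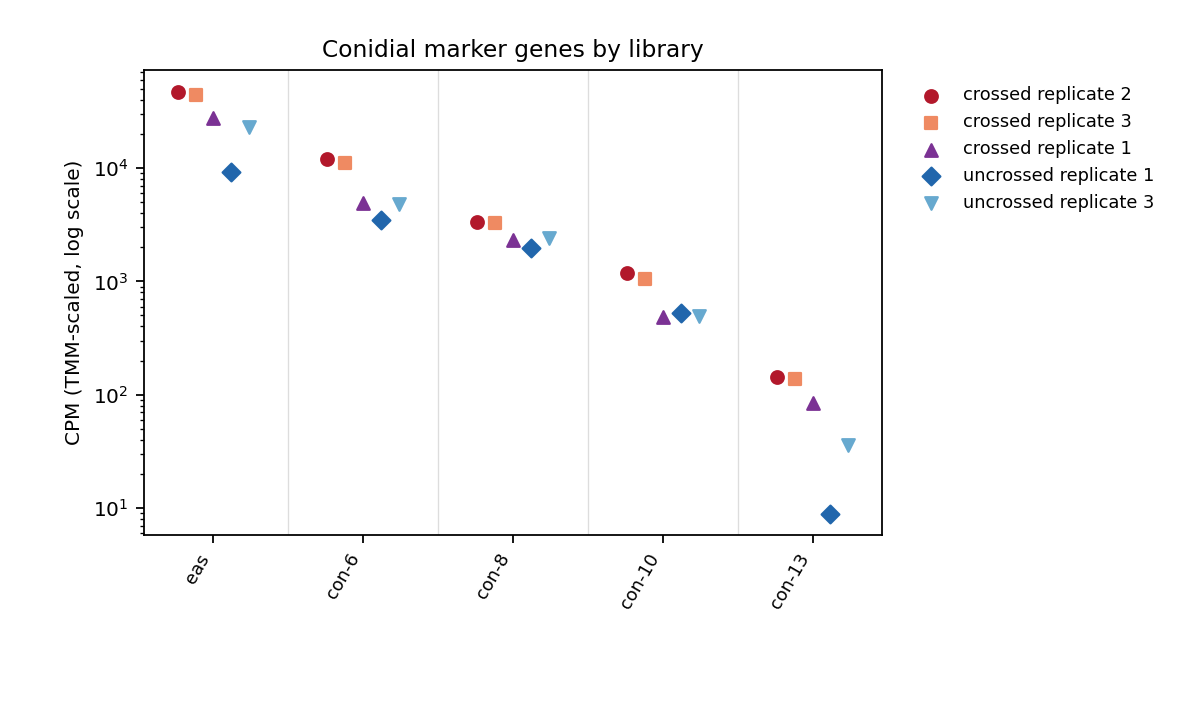
CPM of the 5 conidial marker genes in each library, on a log axis, with a symbol for each library. Crossed replicates 2 and 3 were the highest libraries in all 5 genes. For con-10 the other 3 libraries lay between 485 and 521 CPM.

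The glycoside hydrolase gene gh31-1 (NCU09281), of a family that includes alpha-glucosidases, had 446 and 455 CPM in crossed replicates 2 and 3, against 214 CPM in crossed replicate 1 and 74 and 179 CPM in uncrossed replicates 1 and 3. The gene mig-4 (NCU09040) had 417 and 421 CPM in crossed replicates 2 and 3, against 206 CPM in crossed replicate 1 and 120.2 and 201 CPM in uncrossed replicates 1 and 3. Both genes placed uncrossed replicate 1 lowest, as did 44 of the 57 higher genes (77.2%, against 40.0% of all tested genes).

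Genes without a symbol made up most of the higher group, and those with the largest distances among genes of at least 10 CPM follow. NCU04568 had 208 and 196 CPM in crossed replicates 2 and 3, against 58.6 CPM in crossed replicate 1 and 22.1 and 56.7 CPM in uncrossed replicates 1 and 3. NCU08775 had 30.5 and 30.0 CPM in crossed replicates 2 and 3, against 10.1 CPM in crossed replicate 1 and 9.77 and 9.00 CPM in uncrossed replicates 1 and 3. It was, with con-10, among 11 higher genes (19.3%, against 65.6% of all tested genes) whose other 3 libraries stayed within 0.5 of each other on the log2 scale. NCU04727 had 222 and 226 CPM in crossed replicates 2 and 3, against 89.5 CPM in crossed replicate 1 and 39.8 and 76.4 CPM in uncrossed replicates 1 and 3. NCU04725, which lies in gene order beyond a single tested gene from NCU04727, had 299.8 and 287 CPM in crossed replicates 2 and 3, against 143 CPM in crossed replicate 1 and 96.3 and 139 CPM in uncrossed replicates 1 and 3. The genes NCU05510, NCU09520, NCU08178 and NCU04340 completed the set, with distances of 1.23 to 1.26. NCU09520 was at 277 and 263 CPM in crossed replicates 2 and 3, against 110.4 CPM in crossed replicate 1 and 77.0 and 90.2 CPM in uncrossed replicates 1 and 3.

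A few genes of the higher group were level in the other libraries while others were spread. NCU06977 had 563 and 560.3 CPM in crossed replicates 2 and 3, against 267 CPM in crossed replicate 1 and 271 and 257 CPM in uncrossed replicates 1 and 3. NCU04340 had 169 and 175 CPM in crossed replicates 2 and 3, against 66.0 CPM in crossed replicate 1 and 54.5 and 72.1 CPM in uncrossed replicates 1 and 3. NCU09859 had 374 and 371 CPM in crossed replicates 2 and 3, against 167 CPM in crossed replicate 1 and 33.1 and 99.2 CPM in uncrossed replicates 1 and 3. NCU04431 had 346 and 364 CPM in crossed replicates 2 and 3, against 149 CPM in crossed replicate 1 and 46.9 and 116 CPM in uncrossed replicates 1 and 3. In NCU09859 and NCU04431, as in 9 further higher genes, uncrossed replicate 1 lay at least 1 on the log2 scale below both of the other 2 remaining libraries (19.3% of the group, against 1.99% of all tested genes).

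The 5 ribosomal RNA rows were among 16 such rows that were tested, so this class held 5 of the 57 higher genes and 16 of all 8638. The abundant row NCU17319 had 285389 and 274357 CPM in crossed replicates 2 and 3, against 125235 CPM in crossed replicate 1 and 79284 and 135781 CPM in uncrossed replicates 1 and 3. NCU17322 had 756 and 838 counts in crossed replicates 2 and 3, against 0 counts in crossed replicate 1 and 2 and 0 counts in uncrossed replicates 1 and 3. NCU15715 had 74 and 214 counts in crossed replicates 2 and 3, against 4 counts in crossed replicate 1 and 1 and 7 counts in uncrossed replicates 1 and 3. Ribosomal RNA genes exist in many near-identical copies, so how reads were divided among these rows is uncertain and each single row is a weak measure.

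All 102 lower genes were protein coding, and 16 had a symbol (15.7%, against 12.7% of all tested genes). The mean level was at least 10 CPM in 78 of them, and in 6797 of all 8638 tested genes. Both crossed libraries had 0 counts in 3 lower genes, NCU04818, NCU07978 and NCU09640, which had at most 31 counts in any other library. In the other 3 libraries the lower genes often differed among themselves, with a median range of 1.01 on the log2 scale, against 0.36 over all tested genes. For the higher genes this median range was 0.81.

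The longest distances belonged to genes around pks-6 (NCU02918), a polyketide synthase gene. It had 0.146 and 0.110 CPM in crossed replicates 2 and 3, against 2.66 CPM in crossed replicate 1 and 124 and 4.63 CPM in uncrossed replicates 1 and 3. In counts these values were 5 and 3, against 95 in crossed replicate 1 and 3629 and 194 in uncrossed replicates 1 and 3. The transcript was therefore near the floor of 3 counts (0.0873 and 0.110 CPM) in crossed replicates 2 and 3, while uncrossed replicate 1 stood far above every other library.

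Several neighbours of pks-6 in the gene order of RefSeq assembly NC12 also combined very low values in crossed replicates 2 and 3 with the highest value in uncrossed replicate 1. NCU02919 had 0.291 and 0.292 CPM in crossed replicates 2 and 3, against 9.37 CPM in crossed replicate 1 and 188 and 8.17 CPM in uncrossed replicates 1 and 3. NCU02921, NCU02922 and NCU02923 formed the only run of 3 neighbouring lower genes. They lay at 0 to 0.466 CPM in crossed replicates 2 and 3, against 4.32 to 11.4 CPM in crossed replicate 1, 102 to 221 CPM in uncrossed replicate 1 and 5.45 to 13 CPM in uncrossed replicate 3. The gene fbm-1 (NCU02925) had 0.961 and 0.986 CPM in crossed replicates 2 and 3, against 6.62 CPM in crossed replicate 1 and 158 and 7.0 CPM in uncrossed replicates 1 and 3. NCU02930, further along, had 17.6 and 19.2 CPM in crossed replicates 2 and 3, against 133 CPM in crossed replicate 1 and 1333 and 104 CPM in uncrossed replicates 1 and 3.

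Genes between these had uncrossed replicate 1 highest as well. NCU02920 had 0 and 0.292 CPM in crossed replicates 2 and 3, against 1.26 CPM in crossed replicate 1 and 35.6 and 2.94 CPM in uncrossed replicates 1 and 3, and was left out because all crossed libraries lay well below both uncrossed ones. NCU02926 had 2.12 CPM in both crossed replicates 2 and 3, against 2.10 CPM in crossed replicate 1 and 73.9 and 3.39 CPM in uncrossed replicates 1 and 3. There crossed replicate 1 was level with crossed replicates 2 and 3. On the far side of pks-6, NCU02917 stayed between 1.80 and 2.85 CPM in all libraries.

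**Figure D4:**
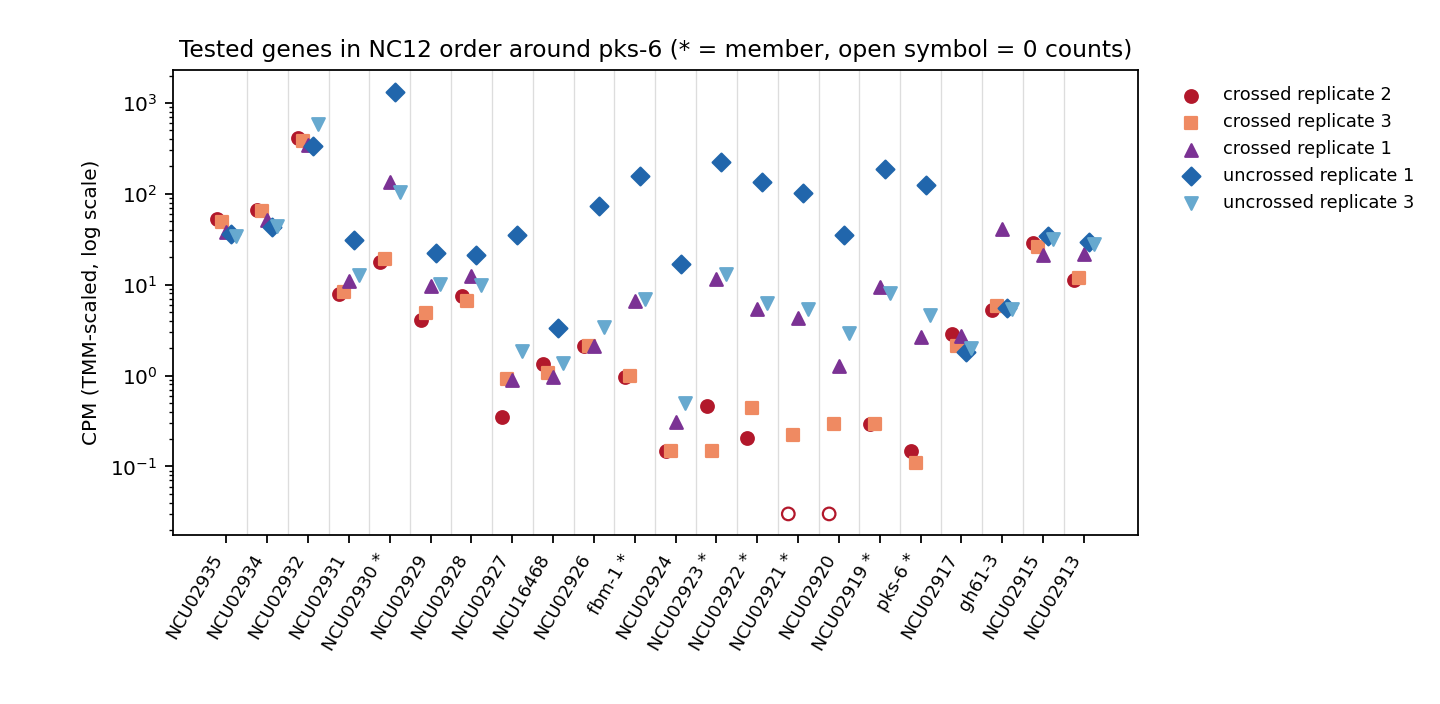
CPM of the tested genes around pks-6 in the order of the NC12 gene table, on a log axis, with a symbol for each library. Asterisks mark genes of the lower group, and open circles at the bottom edge stand for 0 counts. From NCU02930 to pks-6, uncrossed replicate 1 (dark blue diamonds) is the highest library in every gene, while NCU02917 lies between 1.80 and 2.85 CPM in all libraries.

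Uncrossed replicate 1 also led outside this region. In 22 of the 102 lower genes (21.6%, against 2.57% of all tested genes) it exceeded both uncrossed replicate 3 and crossed replicate 1 by at least 1 on the log2 scale. These 22 include pks-6, NCU02919, NCU02921, NCU02922, NCU02923, fbm-1 and NCU02930 of that region, while the genes that follow lie outside it. NCU05788 had 2.85 and 2.26 CPM in crossed replicates 2 and 3, against 34.4 CPM in crossed replicate 1 and 168 and 38.5 CPM in uncrossed replicates 1 and 3. NCU01071 had 0.262 and 0 CPM in crossed replicates 2 and 3, against 4.4 CPM in crossed replicate 1 and 45.8 and 2.96 CPM in uncrossed replicates 1 and 3. The glycoside hydrolase gene gh16-1 (NCU01353) had 49.7 and 50.3 CPM in crossed replicates 2 and 3, against 150.0 CPM in crossed replicate 1 and 473 and 148 CPM in uncrossed replicates 1 and 3.

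In the copper transporter genes tcu-1 and tcu-3 uncrossed replicate 3 was the highest library. The gene tcu-1 (NCU00830), of the Ctr family of copper transporters, had 5.24 and 5.77 CPM in crossed replicates 2 and 3, against 40.2 CPM in crossed replicate 1 and 48.2 and 72.9 CPM in uncrossed replicates 1 and 3. Its neighbour NCU00829 had 4.57 and 3.94 CPM in crossed replicates 2 and 3, against 39.5 CPM in crossed replicate 1 and 47.1 and 84.4 CPM in uncrossed replicates 1 and 3. The copper transporter gene tcu-3 (NCU07428) had 23.1 and 17.8 CPM in crossed replicates 2 and 3, against 69.3 CPM in crossed replicate 1 and 90.9 and 104 CPM in uncrossed replicates 1 and 3. The gene table holds 3 tcu genes, all tested, and 2 of them were in the lower group, against 1.18% of all tested genes. This was looked up after the values had been seen. The remaining gene, tcu-2 (NCU03281), had 48.8 and 50.8 CPM in crossed replicates 2 and 3, against 57.7 CPM in crossed replicate 1 and 78.1 and 68.7 CPM in uncrossed replicates 1 and 3, so uncrossed replicate 1 was highest there and the distance was under 1.

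In 3 wall protein genes of the lower group crossed replicate 1 was the highest library. The gene acw-8 (NCU07277), for an anchored cell wall protein, had 142 and 144 CPM in crossed replicates 2 and 3, against 379.8 CPM in crossed replicate 1 and 329 and 355 CPM in uncrossed replicates 1 and 3. The gene ncw-1 (NCU05137), for a non-anchored cell wall protein, had 129 and 137 CPM in crossed replicates 2 and 3, against 365 CPM in crossed replicate 1 and 294 and 321 CPM in uncrossed replicates 1 and 3. For ncw-2 (NCU01752) the values were 56.3 and 59.5 CPM in crossed replicates 2 and 3, against 259.9 CPM in crossed replicate 1 and 170.3 and 129.9 CPM in uncrossed replicates 1 and 3. The range of the other 3 libraries was 0.21 on the log2 scale for acw-8, 0.31 for ncw-1 and 1.00 for ncw-2. The list as a whole was divided. Of 29 cell wall genes tested, 3 were in the lower group and 0 in the higher group, against 1.18% and 0.66% of all tested genes. Crossed replicates 2 and 3 lay above all other libraries in 16 of the 29 and below them in 6. Over all tested genes these shares were 28.1% and 26.8%.

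Glycoside hydrolase genes stood in both groups. The list here is a mixed one, made of genes with a glycoside hydrolase family symbol and a few regulators and transporters of cellulose use, and it also holds families that act on chitin, fungal glucans or glycoproteins. Of its 77 tested genes, 1 (gh31-1) was in the higher and 4 (gh16-1, gh61-9, gh28-1 and neg-1, the last through its synonym in the gene table) were in the lower group, or 1.30% and 5.19%, against 0.66% and 1.18% of all tested genes. The gene neg-1 (NCU04395), for a beta-1,6-glucanase, had 7.74 and 6.83 CPM in crossed replicates 2 and 3, against 21.0 CPM in crossed replicate 1 and 49.8 and 33.2 CPM in uncrossed replicates 1 and 3. The gene gh61-9 (NCU05969), of the lytic polysaccharide monooxygenases, had 36.2 and 37.7 CPM in crossed replicates 2 and 3, against 127 CPM in crossed replicate 1 and 106 and 82.8 CPM in uncrossed replicates 1 and 3. The polygalacturonase family gene gh28-1 (NCU02369) had 1.37 and 2.08 CPM in crossed replicates 2 and 3, against 40.7 CPM in crossed replicate 1 and 8.41 and 11.4 CPM in uncrossed replicates 1 and 3.

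In gh28-1 the crossed libraries thus held both the highest and the lowest values. It was among 5 lower genes in which crossed replicate 1 exceeded both uncrossed libraries by at least 1 on the log2 scale (4.90%, against 0.799% of all tested genes). NCU09213 had 31.1 and 29.3 CPM in crossed replicates 2 and 3, against 496 CPM in crossed replicate 1 and 141 and 212 CPM in uncrossed replicates 1 and 3. NCU00399 had 6.00 and 6.21 CPM in crossed replicates 2 and 3, against 54.9 CPM in crossed replicate 1 and 15.7 and 14.5 CPM in uncrossed replicates 1 and 3. NCU02344 had 2.85 and 3.61 CPM in crossed replicates 2 and 3, against 31.9 CPM in crossed replicate 1 and 12.5 and 11.9 CPM in uncrossed replicates 1 and 3. The fifth, NCU16488, stayed under 2 CPM in every library.

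Among lower genes without a symbol, some had high values in all of the other 3 libraries. NCU05567 had 191 and 202 CPM in crossed replicates 2 and 3, against 2586 CPM in crossed replicate 1 and 1154 and 1758 CPM in uncrossed replicates 1 and 3. Its values in crossed replicates 2 and 3 were thus far below a spread of 1.16 on the log2 scale among the other libraries. NCU03600 had 720.0 CPM in both crossed replicates 2 and 3, against 1738 CPM in crossed replicate 1 and 2559.9 and 1454 CPM in uncrossed replicates 1 and 3. NCU01348 had 228 and 238 CPM in crossed replicates 2 and 3, against 586 CPM in crossed replicate 1 and 1544 and 866 CPM in uncrossed replicates 1 and 3. NCU06912 had 9.52 and 9.49 CPM in crossed replicates 2 and 3, against 55.1 CPM in crossed replicate 1 and 44.2 CPM in both uncrossed replicates. The other libraries were close to each other in NCU06912, with a range of 0.32 on the log2 scale, so that its distance of 2.21 was several times that range.

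Of 6 tested allorecognition genes, 1 was in the lower group and 0 in the higher group, against 1.18% and 0.66% of all tested genes. This gene, pin-c (NCU03494), acts with het-c in heterokaryon incompatibility. It had 4.89 CPM in both crossed replicates 2 and 3, against 11.3 CPM in crossed replicate 1 and 25.8 and 14 CPM in uncrossed replicates 1 and 3. The protein kinase gene stk-44 (NCU06583) had 38.9 and 41.7 CPM in crossed replicates 2 and 3, against 90.6 CPM in crossed replicate 1 and 143 and 96.8 CPM in uncrossed replicates 1 and 3. The alcohol dehydrogenase gene adh-1 (NCU01754) had 13.6 and 14.9 CPM in crossed replicates 2 and 3, against 36.0 CPM in crossed replicate 1 and 34.7 and 37.2 CPM in uncrossed replicates 1 and 3. Together with acw-8, ncw-1 and the oxygenase gene cao-1 (NCU07008), it was among 24 lower genes (23.5%, against 65.6% of all tested genes) whose other 3 libraries stayed within 0.5 on the log2 scale. The phosphatase gene pho-3 (NCU08643) had 1.51 and 1.42 CPM in crossed replicates 2 and 3, against 8.58 CPM in crossed replicate 1 and 3.34 and 7.91 CPM in uncrossed replicates 1 and 3.

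**Figure D5:**
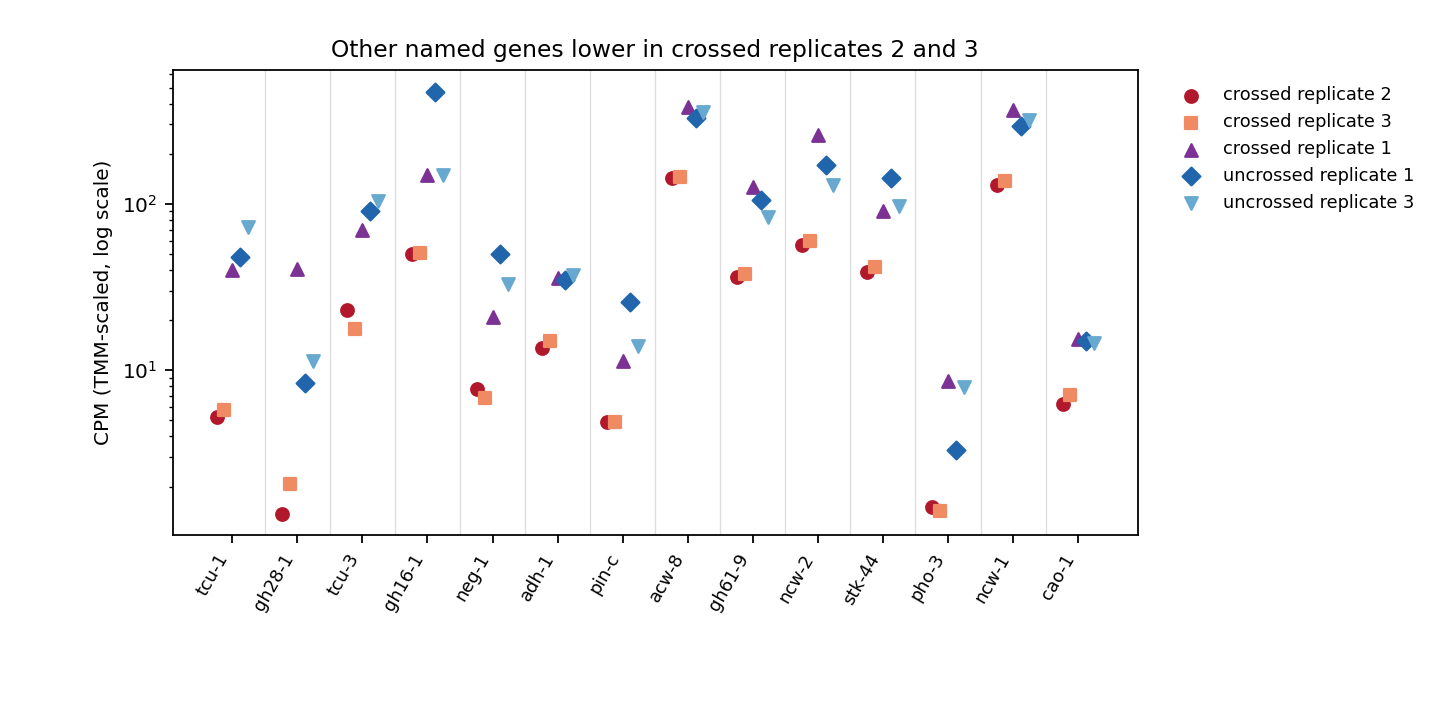
CPM of the 14 other lower genes with a symbol in each library, on a log axis, with a symbol for each library. Crossed replicates 2 and 3 lie at the bottom in each gene, and the order of the other 3 libraries differs between genes, with crossed replicate 1 highest in gh28-1 and uncrossed replicate 1 highest in gh16-1.

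No gene of the following tested lists was in either group: 10 cytosolic ribosomal protein genes, 59 genes of amino acid synthesis, 45 of the respiratory chain, 11 heat shock genes, 16 of light response and carotenoid synthesis, 15 clock and clock-controlled genes, 9 histone genes, 8 of nitrogen use, 6 quinic acid genes, 10 of sulfur use, 6 catalase and superoxide dismutase genes and 11 mating and pheromone genes. The lists differ in size, and with 0.66% and 1.18% of all tested genes in the groups a count of 0 in a short list says little. They were drawn by symbol or synonym, so a list can miss genes of its process. The genes con-6 and con-10 stand only among the conidial markers. The respiratory chain list took every nuo, cox-, cyc-, cyt- and atp- symbol or synonym, so not all of its genes need be parts of that chain. In this list, crossed replicates 2 and 3 lay below all other libraries in 33 of 45 genes, at distances under 1. The share over all tested genes was 26.8%. Of 4 phosphate genes, 1 (pho-3) was in the lower group.

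The place of the genes on the chromosomes was not used to choose them. Among the 102 lower genes, 15 (14.7%) stood directly beside another lower gene in the NC12 order of tested genes, while 2.27% of all placed tested genes stood beside a lower gene. Of these 15, 5 lie around pks-6. The others formed 5 pairs, which were tcu-1 with NCU00829, NCU06911 with NCU06912, NCU09209 with NCU09210, NCU09569 with NCU09568 and NCU10040 with NCU10039. NCU09209 had 388 and 379 CPM in crossed replicates 2 and 3, against 924 CPM in crossed replicate 1 and 903 and 1132 CPM in uncrossed replicates 1 and 3. NCU09210 had 458 and 434 CPM in crossed replicates 2 and 3, against 1053 CPM in crossed replicate 1 and 1067 and 1284 CPM in uncrossed replicates 1 and 3. Of the 52 higher genes with a chromosomal place, 0 stood beside another higher gene, while 1.19% of all placed tested genes stood beside one. No test was made of these shares. The pair NCU10040 and NCU10039 differed in pattern. NCU10040 had 139 and 137 CPM in crossed replicates 2 and 3, against 514 CPM in crossed replicate 1 and 939 and 432 CPM in uncrossed replicates 1 and 3, while NCU10039 had 3.17 and 3.25 CPM in crossed replicates 2 and 3, against 6.62 CPM in crossed replicate 1 and 8.03 and 6.71 CPM in uncrossed replicates 1 and 3.

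The labelled comparison, crossed against uncrossed, was fitted over all tested genes, and it uses the libraries that chose these genes. At an adjusted p of 0.05 by edgeR's quasi-likelihood test, 0 of the 57 higher genes were called higher, where 0.0116% of all tested genes were, and 0 of the 102 lower genes were called lower, where 0.0347% were. At an unadjusted p under 0.05, 34 higher and 38 lower genes passed, where 10.3% and 11.0% of all tested genes did in these directions. At the adjusted p of 0.05, edgeR called 4 of all tested genes (0.0463%), counting both directions. DESeq2 called 24 of the 57 and 28 of the 102, where it called 5.51% of all tested genes higher and 6.29% lower. The limma-voom fit called 0 of either, where it called 0.0116% of all tested genes higher and 0.0463% lower. Since the rule used this contrast, nothing is read from these counts.

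The fitted log2 fold changes of crossed over uncrossed were 0.81 to 9.09 in the higher genes, with a median of 1.44. In the lower genes they were -5.98 to 0.57, with a median of -1.38, and over all tested genes the median was 0.000797. In con-6 it came to 1.18 with an SE of 0.44 (edgeR adjusted p = 0.212). In pks-6 it came to -5.98 with an SE of 1.72 (edgeR adjusted p = 0.171), and in tcu-1 to -1.82 with an SE of 0.93 (edgeR adjusted p = 0.308). In gh28-1 it came to 0.57 with an SE of 1.45 (edgeR adjusted p = 0.828), positive because crossed replicate 1 was the highest library. Without that replicate it was -2.53, a direction that the rule had set, so no test is read there.

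Leaving out 1 library moved these counts. A fit without crossed replicate 1 compares libraries that the rule had set apart, so nothing is read from its member counts. Without crossed replicate 1, edgeR called 762 genes, among them 27 of the 57 and 68 of the 102, where it called 4.19% of the genes tested higher and 4.65% lower. Without uncrossed replicate 3 it called 192 genes, 0.629% of the genes tested higher and 1.57% lower, and 0 of either group. It called 0 genes when any of uncrossed replicate 1, crossed replicate 2 and crossed replicate 3 was missing, with 874, 877 and 871 genes in that order at an unadjusted p under 0.05.

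The authors' deposited table gives 1 estimate of relative expression per stage. The crossed over uncrossed ratio from the authors' deposited table was above 1 in all 55 higher genes that have an estimate, with a median of 2.04. In the authors' deposited table it was below 1 in 98 of the 102 lower genes and above 1 in 4, with a median of 0.368. Over 8629 tested genes it was above 1 in 2174, with a median of 0.867 in the authors' deposited table. For gh28-1 the authors' deposited table gives 1.45, the direction of crossed replicate 1 and not of crossed replicates 2 and 3. That table rests on the same libraries and gives no value by library.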

How the data were processed

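RNA sequencing (stranded paired-end libraries of total RNA, per the labels' protocols) covered 3 crossed and 2 uncrossed libraries. The authors deposited raw counts per gene; CASAVA 1.8.2, fastp, HISAT2 2.1.0 and StringTie 1.3.3b are named in the submitters' processing notes, while the genome build and strand use in counting are not given in the files and labels used here. The authors' deposited table of ratios per stage was used beside them, per the file headers. One row, mat_a1, with more values than columns was left out. Of 10591 rows, 10590 matched the RefSeq NC12 gene table, used for symbols, RNA classes and gene order.

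Genes passed filterByExpr by group (8638 kept), with TMM scaling, in edgeR 4.0.16 (R 4.3.3). Crossed against uncrossed was tested by edgeR's quasi-likelihood test over all 5 libraries, two-sided, with Benjamini-Hochberg adjustment; standard errors came from its F statistic. The fit and the rule were tested on simulated data. Alternatives were DESeq2 1.42.0, limma-voom (limma 3.58.1), other scalings, filters, prior counts and distances, a replicate block, and leaving out 1 library at a time. The members and lists were chosen with earlier results of these data known. Named genes were those with a symbol (at most 12 per direction, by mean CPM), the 8 per direction of largest distance among genes with a mean of at least 10 CPM, runs of 3 or more neighbours, the 2 genes nearest the limit on each side, and members of a list beside it. Other genes named, among them cao-1, NCU04725, NCU09209, NCU09210, NCU09213, NCU02930, NCU05567, NCU03600, NCU01348, NCU06977, NCU09859, NCU04431 and the ribosomal RNA rows, were chosen after their values were seen. Planned promoter motifs were not searched, since no sequences were used here. Plates are the replicates, and p-values set the group difference against the spread between these libraries. The floor of 3 counts was 0.0717 to 0.110 CPM per library and covers counting error only.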

Additional observations from a re-analysis of the deposited data

How the results depend on the processing

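The number of higher genes was 52 to 65 and of lower genes 96 to 116 with DESeq2 size factors, without ribosomal RNA genes, without a filter, with a filter of 1 CPM in 2 libraries, with prior counts of 0.5 and 5 and with the last clause of the rule dropped. Plain library sizes gave 15 higher and 220 lower, a distance of 0.8 gave 114 and 174, and a distance of 1.5 gave 11 and 45; the last 2 follow from the limit itself. Leaving out each library in turn gave 0 to 81 higher and 0 to 148 lower genes. The counts of 0 arose without crossed replicate 1, since the last clause then leaves out every gene that separates. Without uncrossed replicate 3, 37 of the 57 and 66 of the 102 genes were kept.

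Crossed against uncrossed, 4 genes passed in edgeR and 1019 in DESeq2 (476 higher, 543 lower); the cause was not tested. Leaving out each library in turn gave 0 to 762. A fit with a replicate block passed 266 of 8638 genes (130 higher, 136 lower), 17 of the higher and 24 of the lower members among them. Crossed replicate 2 is the only library with its number, so it adds nothing to the group difference in that fit. The deviations of same-numbered libraries correlated at 0.257 (number 1) and 0.224 (number 3) across genes. These 2 pairs are too few to show that numbers pair the libraries, which share only a number. The correlations are also not independent, since the deviations of the 2 uncrossed libraries from their mean mirror each other.

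Over 39 members and 13 fits of the group difference, 5 values turned sign. The log2 fold change ranged from -1.374 to 0.091 for ncw-2 (NCU01752), from -2.531 to 1.109 for gh28-1 (NCU02369) and from -1.939 to 0.21 for pho-3 (NCU08643) over the libraries left out in turn, and for gh28-1 it was -0.952 in limma-voom. The positive values of ncw-2 (0.091 and 0.076) arose without crossed replicate 2 or 3, that of pho-3 without uncrossed replicate 3, and the lowest of gh28-1 without crossed replicate 1. None of the 39 distances turned sign over 7 settings, but 12 values moved by more than the SD of the gene in the other 3 libraries, 11 of them with plain library sizes, where con-6, con-10, gh31-1 and mig-4 no longer reached the distance of 1. A lone uncrossed library was taken to vary as the crossed libraries do.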

Other observations

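A further 17 genes met the distance of 1 and were left out because all 3 crossed libraries lay to one side of both uncrossed libraries. The catalase gene cat-3 (NCU00355) had 17.2 and 15.9 CPM in crossed replicates 2 and 3, against 82.1 CPM in crossed replicate 1 and 351 and 172 CPM in uncrossed replicates 1 and 3. NCU00865 had 417 and 428 CPM in crossed replicates 2 and 3, against 919 CPM in crossed replicate 1 and 4911 and 1628 CPM in uncrossed replicates 1 and 3. Of the 4 genes in the other direction, NCU00818 had 33.4 and 34.1 CPM in crossed replicates 2 and 3, against 11.1 CPM in crossed replicate 1 and 4.08 and 4.35 CPM in uncrossed replicates 1 and 3. In these genes crossed replicate 1 lay between the other crossed and the uncrossed libraries. They were chosen after their values were seen.

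The lower genes NCU03373 and NCU00052 had nearly equal counts in every library, although they are separate rows of the table. NCU03373 had 26 and 17 counts in crossed replicates 2 and 3, against 106 in crossed replicate 1 and 124 and 444 in uncrossed replicates 1 and 3. NCU00052 had 26 and 12 counts in crossed replicates 2 and 3, against 105 in crossed replicate 1 and 123 and 442 in uncrossed replicates 1 and 3. Whether the rows share reads was not tested, so they may not be separate measurements.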
